A study of Homo sapiens with 6 samples.

Results

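The genes described here drive or mark the epithelial-mesenchymal transition, and 10 were listed by symbol: the transcription factors ZEB1, ZEB2, SNAI1, SNAI2 and TWIST1, and the mesenchymal products VIM, CDH2, FN1, L1CAM and AXL. Of the 10, 7 had a row under their Ensembl identifier among the 59192 features of the deposited table. SNAI2 was too low to test, so 6 genes entered the comparison over 21703 features. TWIST1, CDH2 and L1CAM had no row of their own and were not analysed here.

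RNA was sequenced from SW480, an established line of human colorectal adenocarcinoma, in 3 independent experiments for each of 2 cell lines. The labels give SW480-45 as the HPSE knockdown. It was taken to be the line that the paper calls SW480-KD1, a match that the labels do not state. Both lines had been infected with a lentivirus for Cas9, selected with puromycin and infected again with a guide RNA vector that also carries EGFP. The guide of SW480-45 targets HPSE, the gene of heparanase, which cuts heparan sulfate chains, and the guide of the control line SW480-NC is a control sequence. Whether either line is a clone or a pool is not given in the sources used here. The study asked how loss of heparanase acts on invasion, and the transition genes bear on that question.

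In the transition, epithelial cells lose their junctions and take up a motile form. ZEB, SNAI and TWIST proteins bind E-boxes, short sites in the promoters of epithelial genes, and repress genes such as CDH1, which encodes E-cadherin. Vimentin, N-cadherin and fibronectin are its common markers, and in colorectal tumours they are best known from cells at the invasive front.

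In SW480-45 the row of ZEB1 was lower, and those of VIM and FN1 were higher, each by a difference that did not pass the adjusted threshold. The log2 fold changes, SW480-45 over SW480-NC, were −1.39 for ZEB1, 0.55 for VIM and 0.22 for FN1. The 95% confidence intervals of ZEB2, SNAI1 and AXL included 0, and their groups overlapped. SNAI2 was at or near 0 in every library. Across the lists of related genes, HMGA2 and ITGAV were lower past the adjusted threshold in limma, as were 0.47% of all features. HMGA2 lost that call in most fits without 1 library, and ITGAV lost it in all of them.

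The values are normalized counts, read counts that the authors divided by a size factor for each library. The libraries held 33221323 to 39802365 reads on the features, and a count of 0 allows up to 3 reads, or 2.71 to 3.18 normalized counts. Such limits cover counting error only. The difference of each feature was tested with limma on log2(normalized count + 1), with Benjamini-Hochberg adjustment over all 21703 features with a mean of at least 10. The target HPSE was at 136, 172.5 and 146 normalized counts in SW480-45 against 269.9, 294.6 and 246 in SW480-NC. Its groups lay apart, by −0.83 on the log2 scale, and its adjusted p from limma was 0.0547, above the threshold of 0.05. It passed in DESeq2 (adjusted p = 0.00207), and in limma with no minimum (0.0451), a minimum mean of 50 (0.046) or Ensembl identifiers only (0.0462). Under every other limma alternative it did not pass, with an adjusted p of 0.0507 (quantile normalization) to 0.199 (1 library left out). In edgeR it did not pass either (adjusted p = 0.0664). These are levels of RNA, whereas the paper assessed the knockdown as HPSE protein, by western blot. The colon epithelial markers EPCAM and KRT8 were at 16775 or more in every library, while CDH17 was at 0 in 5 of 6 libraries and CDX2 did not exceed 40.3.

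The row of a gene need not hold all its reads. Of 19951 protein-coding genes in GENCODE 29, 12492 had a row, and 33265 features were loci named by a transcript assembler, with no symbol. KRT18, the partner of KRT8 in epithelial filaments, had no row, nor had CDH1. The table lists 0 features at 0 in all libraries, so for TWIST1, CDH2 and L1CAM a lack of reads and counting under an assembler locus cannot be told apart. For the 7 genes with a row, the share of their reads under an assembler locus is unknown. Levels below are levels of the rows.

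Upstream windows of the genes were searched for the core E-box letters that ZEB and SNAI factors bind, CACCTG, on both strands (CAGGTG on the other). The windows are the 250 bases before the start of each gene in RefSeq on GRCh38.p14, written along the gene. The windows shown have the E-box letters in capitals. ZEB1 and VIM are the tested members whose groups did not overlap, and CRB3 and DSP are epithelial genes with more than 1 match, as is PATJ.
ZEB1, chr10:31318167-31318416, plus strand: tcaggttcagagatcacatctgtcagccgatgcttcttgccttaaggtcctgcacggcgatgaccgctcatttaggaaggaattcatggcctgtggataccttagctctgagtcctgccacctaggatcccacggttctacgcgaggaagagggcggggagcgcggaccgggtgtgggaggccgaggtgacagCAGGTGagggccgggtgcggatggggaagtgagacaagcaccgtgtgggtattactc
VIM, chr10:17227991-17228240, plus strand: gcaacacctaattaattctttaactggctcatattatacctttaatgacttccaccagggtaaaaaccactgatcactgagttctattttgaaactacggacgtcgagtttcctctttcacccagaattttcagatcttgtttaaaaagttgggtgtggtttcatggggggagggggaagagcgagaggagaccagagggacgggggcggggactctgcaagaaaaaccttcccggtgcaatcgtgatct
CRB3, chr19:6464021-6464270, plus strand: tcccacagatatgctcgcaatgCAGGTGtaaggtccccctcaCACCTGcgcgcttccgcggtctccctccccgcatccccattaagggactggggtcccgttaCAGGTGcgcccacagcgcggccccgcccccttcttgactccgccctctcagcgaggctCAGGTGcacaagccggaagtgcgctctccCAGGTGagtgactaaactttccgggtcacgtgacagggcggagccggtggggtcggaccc
DSP, chr6:7541421-7541670, plus strand: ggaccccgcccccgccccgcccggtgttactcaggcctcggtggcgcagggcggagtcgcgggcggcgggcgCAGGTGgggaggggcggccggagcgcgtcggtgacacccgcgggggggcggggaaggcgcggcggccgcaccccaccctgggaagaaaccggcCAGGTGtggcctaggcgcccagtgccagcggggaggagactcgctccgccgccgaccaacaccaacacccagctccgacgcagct

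The ZEB1 window held 1 match, which began at position −57 from the start of the gene. The VIM window held 0 matches, and that says only that these letters are not in it. In all, 2 of 7 windows of the listed genes held a match, ZEB1 and AXL, against 4781 of 27305 promoters in the table (17.5%). SNAI1, SNAI2 and TWIST1 had no window in the table. Of 15 epithelial genes with a window, 8 (53.3%) held a match. They were listed as genes repressed in the transition, so this share is not independent of how the list was chosen. CRB3, which encodes a polarity protein of tight junctions, held 5, and DSP, which encodes desmoplakin, held 2. A match is a run of letters and not a binding site.

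**Figure D1:**
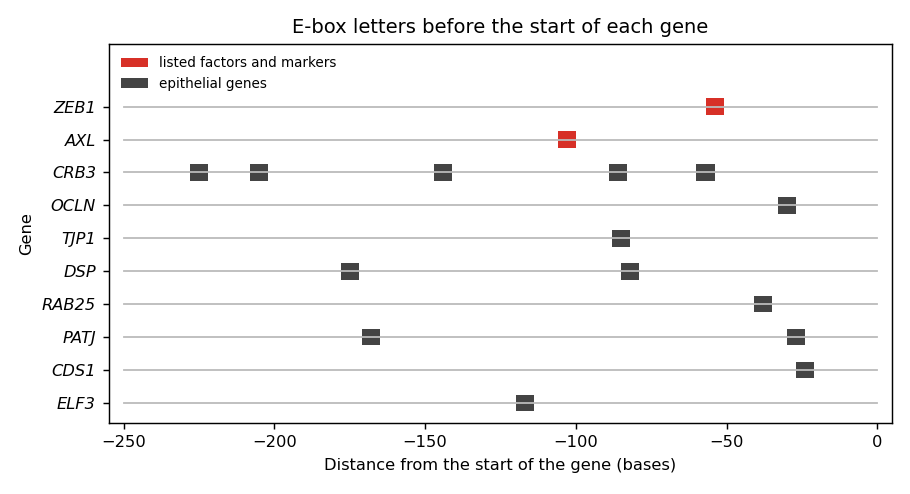
Positions of the E-box letters in the 250 bases before the RefSeq start of each gene that held a match, for the listed factors and markers (red) and the epithelial genes (grey). The x axis is the distance from the RefSeq start in bases, each bar is 1 match of 6 letters, and CRB3 shows 5 matches.

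ZEB1 (ENSG00000148516, chromosome 10, from 31318495 to 31529814 on the plus strand of GRCh38 in GENCODE 29) encodes a zinc finger repressor of epithelial genes. Its row had 5.27, 17.2 and 13.2 normalized counts in SW480-45, against 35.6, 23.2 and 31.8 in SW480-NC. All 3 knockdown libraries were below all 3 control libraries. The means were 11.9 ± 6.05 (SD, n = 3) and 30.2 ± 6.35 (SD, n = 3), a log2 fold change of −1.39 (standard error 0.46, 95% confidence interval −2.47 to −0.31). The unadjusted p was 0.0182 and the adjusted p was 0.215 from limma, so the difference did not pass. These values rested on 38 reads over the SW480-45 libraries and 88 over the SW480-NC libraries. The lowest library, SW480-45 replicate 1, held 5 reads, and without it the log2 fold change was −0.94 (unadjusted p = 0.0354 from limma). Without SW480-NC replicate 1 or 3 the unadjusted p was 0.0598 or 0.0528 from limma.

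ZEB1-AS1, a noncoding RNA on the minus strand whose span overlaps that of ZEB1 by 1953 bases, was looked at after its values were seen. It had 125.5, 100.2 and 88.6 normalized counts in SW480-45 and 155.9, 133.3 and 142.1 in SW480-NC. Again the groups did not overlap. The difference was −0.46 on the log2 scale (standard error 0.17), with an unadjusted p of 0.0288 and an adjusted p of 0.25 from limma. The counting is not stated to use strand, so reads in the overlap cannot be assigned to one of the genes.

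ZEB2 (ENSG00000169554, chromosome 2, from 144364364 to 144524583 on the minus strand), encodes the paralog of ZEB1. Its row had 29.5, 10.8 and 22.6 normalized counts in SW480-45 and 15.7, 9.66 and 17.0 in SW480-NC. The groups overlapped, and the log2 fold change was 0.47 (standard error 0.46, 95% confidence interval −0.60 to 1.54, adjusted p = 0.65 from limma). A difference was not detectable at this depth, with 64 reads over the SW480-45 libraries and 41 over the SW480-NC libraries. ZEB2-AS1 had no row.

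SNAI1 (ENSG00000124216, chromosome 20, from 49982999 to 49988886 on the plus strand), which encodes Snail, was the best covered of the transcription factors. Its row had 353.2, 343.2 and 294.9 normalized counts in SW480-45 and 282.4, 305.2 and 309.6 in SW480-NC. The lowest knockdown library lay between the control libraries. The log2 fold change was 0.14 (standard error 0.12, 95% confidence interval −0.13 to 0.41, adjusted p = 0.601 from limma).

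SNAI2 (ENSG00000019549, chromosome 8, minus strand), which encodes Slug, was barely detected. It had 0 reads in each of the 3 SW480-45 libraries and in SW480-NC replicate 1, and 5.79 and 4.24 normalized counts in SW480-NC replicates 2 and 3. The sum was 0 reads against 10. With the limit that a count of 0 allows so close to the control values, a difference was not detectable at this depth, and no fold change is given.

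**Figure D2:**
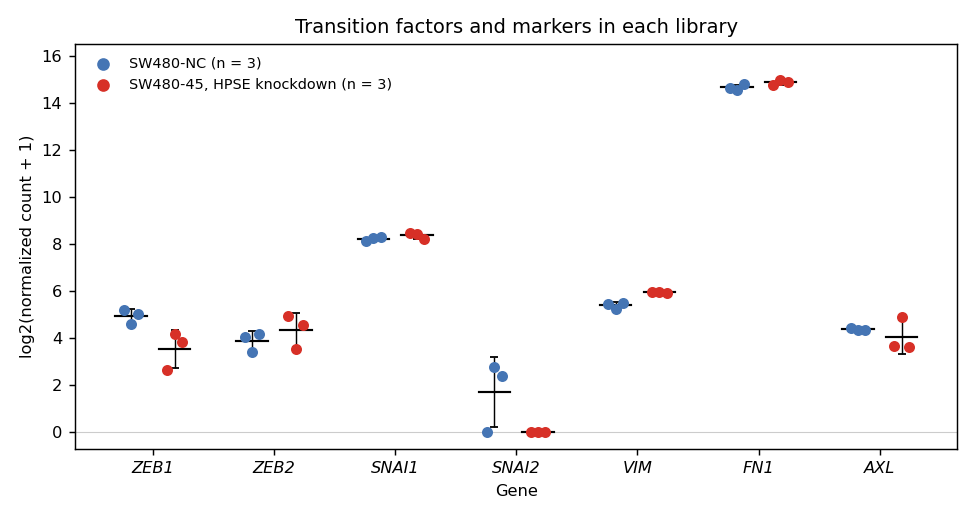
log2(normalized count + 1) of the 7 listed genes with a row, by gene, for the SW480-NC libraries (blue) and the SW480-45 libraries (red). Each point is 1 library, the horizontal line is the mean and the bar is the SD over 3 libraries. ZEB1 and VIM are the 2 tested genes whose groups do not overlap, ZEB1 lower and VIM higher in SW480-45.

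VIM (ENSG00000026025, chromosome 10, from 17228259 to 17237593 on the plus strand) encodes vimentin, the intermediate filament of mesenchymal cells. Its row had 61.2, 61.4 and 59.4 normalized counts in SW480-45 and 42.9, 36.7 and 44.5 in SW480-NC. The knockdown libraries were all above the control libraries and lay close together. The means were 60.6 ± 1.12 (SD, n = 3) and 41.4 ± 4.13 (SD, n = 3), a log2 fold change of 0.55 (standard error 0.19, 95% confidence interval 0.11 to 0.99). The unadjusted p was 0.0215 and the adjusted p 0.228 from limma. In DESeq2 on the recovered reads the unadjusted p was 0.102. With 1 library left out, the unadjusted p from limma ranged from 0.0284 to 0.0646, and it was above 0.05 without SW480-45 replicate 1 or 2 or SW480-NC replicate 2.

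VIM-AS1, whose span overlaps that of VIM by 1727 bases on the other strand, had 16.9, 9.93 and 26.4 normalized counts in SW480-45 and 14.6, 23.2 and 23.3 in SW480-NC, so its groups overlapped. As VIM and several mesenchymal genes are also made by fibroblasts, markers of other cells were summed. The 5 fibroblast markers with a row, of 8 listed, summed to 287.3 to 387.4 normalized counts in SW480-45 and 230.8 to 272 in SW480-NC. COL1A1 made up most of it, and the 3 markers other than COL1A1 and PDGFRB did not exceed 8.37 in any library. The 3 endothelial markers summed to 28.0 to 43.2 and 12.6 to 26.5, and CD14, the 1 leukocyte marker with a row of 3 listed, was at 38.6 to 44.3 in SW480-45, within its SW480-NC range. The libraries are labelled as cultures of a single cell line, SW480, and the part of other cells in the VIM values was not tested. In bulk RNA, more cells that make VIM and more VIM RNA per cell cannot be told apart.

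Among 9721 other genes with a symbol and a mean of at least 50, those whose centred log2 profile over the 6 libraries lay nearest to that of VIM were MYB, AGAP2 and ARHGEF19. MYB, which encodes a transcription factor, lay at a root mean square distance of 0.043 on the log2 scale, against a median distance of 0.326. It had 927.9, 905.8 and 869.6 normalized counts in SW480-45 and 610.9, 533.1 and 619.2 in SW480-NC. The distances for AGAP2 and ARHGEF19 were 0.0455 and 0.0608. The likeness is a description over 6 libraries that differ by cell line.

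FN1 (ENSG00000115414, chromosome 2, from 215360440 to 215436172 on the minus strand) encodes fibronectin, a matrix glycoprotein. Its row had 27744, 32382 and 29985 normalized counts in SW480-45 and 25123, 24216 and 28140.0 in SW480-NC. The highest control library was above the lowest knockdown library, so the groups overlapped. The means were 30037 ± 2320 (SD, n = 3) and 25826 ± 2054 (SD, n = 3), a log2 fold change of 0.22 (standard error 0.08, 95% confidence interval 0.03 to 0.40). The unadjusted p was 0.0269 and the adjusted p 0.245 from limma. It was above 0.05 before adjustment in 4 of the 6 fits without 1 library, and the highest value was 0.0987 without SW480-NC replicate 2.

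AXL (ENSG00000167601, chromosome 19, from 41219203 to 41261766 on the plus strand) encodes a receptor tyrosine kinase. It had 11.6, 28.9 and 11.3 normalized counts in SW480-45 and 20.9, 19.3 and 19.1 in SW480-NC. The knockdown libraries lay on both sides of the control libraries. The log2 fold change was −0.32 (standard error 0.43, 95% confidence interval −1.31 to 0.67, adjusted p = 0.753 from limma).

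Levels were compared between genes only per kilobase of the longest protein-coding transcript. In SW480-NC, FN1 had 2900 ± 231 (SD, n = 3) normalized counts per kilobase and SNAI1 had 177 ± 8.65. VIM followed at 22.1 ± 2.21 (SD, n = 3) per kilobase. ZEB1 had 4.82 ± 1.01 per kilobase in SW480-NC and AXL 4.17 ± 0.211, closer to each other than the SD of ZEB1. ZEB2 had 1.47 ± 0.407 and SNAI2 1.38 ± 1.24 per kilobase, which also differed by less than their SD. In SW480-45, AXL was at 3.65 ± 2.13, ZEB2 at 2.19 ± 0.986 and ZEB1 at 1.89 ± 0.966 per kilobase, and these 3 levels differed by less than the SD of AXL.

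At an adjusted p under 0.05 from limma, 0 of the 6 tested genes passed, against 0.802% of all features (0.332% higher and 0.47% lower). At an unadjusted p under 0.05, 3 of 6 passed, VIM and FN1 higher and ZEB1 lower, against 16.2% of all features in either direction (8.1% higher and 8.15% lower). With a change of at least 2-fold as well, ZEB1 alone passed, 1 of 6, against 2.42% of all features (1.46% higher and 0.968% lower). In edgeR 0 passed after adjustment and 3 before, against 136 and 3451 of the same 21703 features. In DESeq2 0 and 2 passed, against 825 and 3396 of 59192 features, as it was run with no minimum mean. DESeq2 gave no adjusted p for ZEB1, ZEB2 and AXL, so its count after adjustment rests on SNAI1, VIM and FN1. Non-overlapping groups were seen for 2 of 6, VIM higher and ZEB1 lower, against 23.4% of all features (11.4% higher and 12.0% lower). The median log2 fold change was 0.18 over the 6 genes and −0.0048 over all features. A two-sided exact permutation test gave p = 0.1 for ZEB1 and for VIM, the lowest value that this design permits, and 0.2 for FN1.

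**Figure D3:**
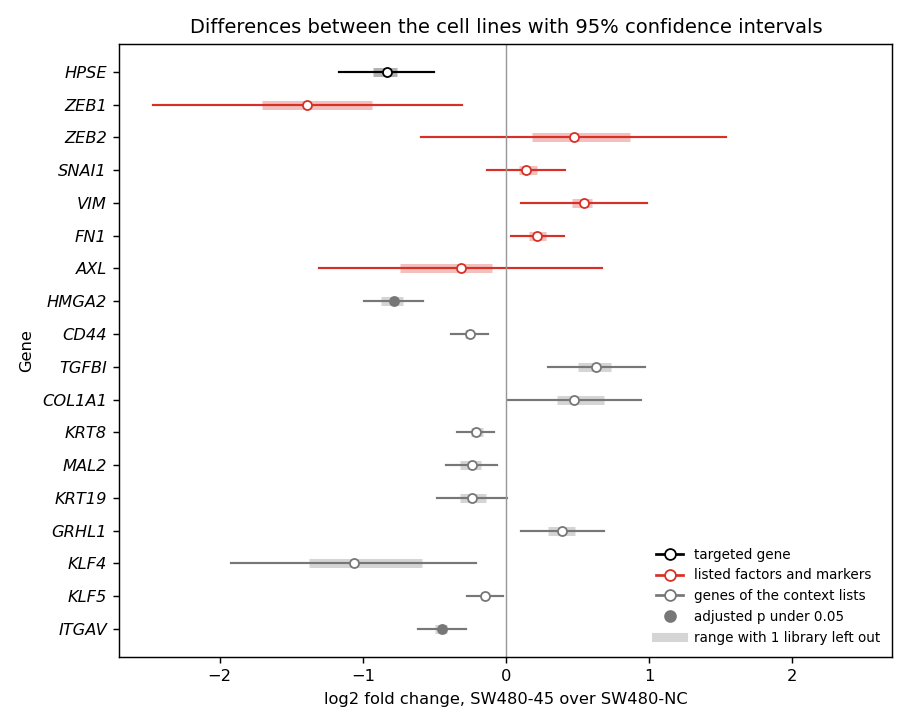
log2 fold change, SW480-45 over SW480-NC, for HPSE, the 6 tested factors and markers and the named genes of the related lists. Points are limma estimates (filled at an adjusted p under 0.05), thin lines are 95% confidence intervals and thick bars the range when 1 library is left out. ZEB1 lies at −1.39 with a wide interval, and HMGA2 and ITGAV are the filled points.

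Other transition factors were represented by 9 tested genes of 15 listed, 3 of them higher and 6 lower. Over all features tested, 10700 were higher and 11003 lower. At an adjusted p under 0.05 from limma, 0 were higher and 1 lower, against 0.332% and 0.47% of all features. At an unadjusted p under 0.05 from limma, 0 were higher and 2 lower, against 8.1% and 8.15% of all features. HMGA2, an architectural chromatin protein that induces SNAI and TWIST genes in other systems, had 3968, 4179.6 and 4172 normalized counts in SW480-45 and 7279, 7777 and 6252 in SW480-NC. Every knockdown library was well below every control library. The means were 4106 ± 120.1 (SD, n = 3) and 7102.5 ± 778 (SD, n = 3), and the gene fell by 0.78 on the log2 scale (standard error 0.09, adjusted p = 0.0159 from limma). The call was lost in 5 of the 6 fits without 1 library, with an adjusted p of up to 0.0793 without SW480-NC replicate 1, and it held only without SW480-NC replicate 3 (0.0149). FOXC1, a forkhead factor named after its values were seen, differed by −0.50 on the log2 scale, with an adjusted p of 0.208 from limma. The list's median was −0.10.

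Other mesenchymal markers were represented by 11 tested genes of 26 listed. After adjustment 0 passed in limma or edgeR, with 0.802% of all features called in limma. At an unadjusted p under 0.05 from limma, 2 were higher and 1 lower, against 8.1% and 8.15% of all features. CD44, a receptor of hyaluronan, had means of 22918 ± 831 (SD, n = 3) in SW480-45 and 27317 ± 1043 (SD, n = 3) in SW480-NC (log2 fold change −0.25, adjusted p = 0.0997 from limma). TGFBI, a matrix protein induced by TGF-beta, had 2229 ± 362 (SD, n = 3) and 1437 ± 205 (SD, n = 3) (log2 fold change 0.63, adjusted p = 0.11 from limma). COL1A1, a chain of type I collagen, had a log2 fold change of 0.48 with overlapping groups (adjusted p = 0.297 from limma). DESeq2, run with no minimum mean, called 825 of 59192 features, 393 of them higher. In this list it called 1 higher and 1 lower, TGFBI (adjusted p = 0.00425) and CD44 (adjusted p = 0.0344). A further 6 listed markers, among them SPARC and COL1A2, had rows below the minimum, with no value above 8.37 normalized counts.

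Epithelial genes repressed in the transition were measured in 20 rows of 25 listed, and 0 passed the adjusted threshold in limma, edgeR or DESeq2. With 0.802% of all features called in limma, a count of 0 is no result about these genes. Of the 20, 6 were higher and 14 lower, against 10700 and 11003 of all features tested. The median was −0.08 on the log2 scale. At an unadjusted p under 0.05 from limma, 0 were higher and 2 lower, against 8.1% and 8.15% of all features. The 7 colon epithelial markers with a row, of 8 listed, summed to 113827.5 to 121953.1 in SW480-45 and 130582.3 to 138290.0 in SW480-NC, most of it KRT8, and their part in these differences was not tested. KRT8, a keratin, had 75512 ± 4413 (SD, n = 3) normalized counts in SW480-45 and 87410.3 ± 3039 (SD, n = 3) in SW480-NC (log2 fold change −0.21, adjusted p = 0.141 from limma). MAL2, a protein of apical transport, was at −0.24 on the log2 scale (adjusted p = 0.197 from limma), and KRT19, another keratin, had −0.24 (adjusted p = 0.315 from limma). For the 7 tested genes whose window held the E-box letters, the log2 fold change ranged from −0.15 to 0.12, with a median of −0.01. For the 6 tested genes whose window held none, the median was −0.19 and the range −0.43 to 2.10. CRB3, with 5 matches, had a log2 fold change of −0.15 (95% confidence interval −0.65 to 0.35).

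Regulators of the epithelial state were measured in 7 tested genes of 11 listed. After adjustment 0 passed in limma, edgeR or DESeq2, with 0.802% of all features called in limma. At an unadjusted p under 0.05 in limma, 1 was higher and 2 lower, against 8.1% and 8.15% of all features. GRHL1, a grainyhead factor, had 421 ± 13.2 (SD, n = 3) normalized counts in SW480-45 and 322 ± 41.9 (SD, n = 3) in SW480-NC (log2 fold change 0.39, adjusted p = 0.197 from limma). KLF4, a Krüppel-like factor of differentiated epithelium, had 376 ± 180.5 (SD, n = 3) and 717 ± 78.0 (SD, n = 3) (log2 fold change −1.06, adjusted p = 0.226 from limma). Without SW480-45 replicate 3, the lowest library, its log2 fold change was −0.59. KLF5, its relative of proliferating crypt cells, had −0.14 (adjusted p = 0.257 from limma).

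Upstream signals and partners were measured in 19 tested genes of 28 listed. Of these, 4 were higher and 15 lower, against 10700 and 11003 of all features tested, and the median was −0.10 on the log2 scale. At an adjusted p under 0.05 from limma, 0 were higher and 1 lower, against 0.332% and 0.47% of all features. At an unadjusted p under 0.05 from limma, 2 were higher and 5 lower, against 8.1% and 8.15% of all features. ITGAV, the alpha-v integrin chain, a receptor of fibronectin and activator of latent TGF-beta, had 5436, 5182 and 5713 normalized counts in SW480-45 and 7613, 7706 and 6922 in SW480-NC. Every SW480-45 library was below every SW480-NC library, and ITGAV fell by 0.45 on the log2 scale (standard error 0.07), with an adjusted p of 0.0437 in limma. The call was lost in all 6 fits without 1 library, with an adjusted p from 0.0547 to 0.186, and in edgeR (0.0519). DESeq2, which called 825 of 59192 features, 393 of them higher, called 2 genes of the list, ITGAV and TGFBR2, both lower.

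Further members of that list are given by role, chosen after their values were seen. ITGA5, the alpha chain of the main fibronectin receptor, was at 0.90 on the log2 scale (adjusted p = 0.163 from limma), and ITGB1, its beta chain, had −0.27 (adjusted p = 0.154 from limma). The AXL ligand GAS6 was at or near 0, with a mean of 1.52 ± 1.87 (SD, n = 3) normalized counts in SW480-45 and 0 in every SW480-NC library. The related receptor MERTK was at 0.44 on the log2 scale (adjusted p = 0.142 from limma), and TYRO3 had −0.03 (adjusted p = 0.903 from limma). TGFBR2, a receptor of TGF-beta, had −0.29 (adjusted p = 0.0814 from limma), and SMAD3, which carries its signal, had −0.22 (adjusted p = 0.159 from limma).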

How the data were processed

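The authors extracted RNA with Trizol, used the NEBNext Ultra kit for libraries and read them on an Illumina HiSeq. The submitters' processing notes list bcl2fastq, HISAT2, DESeq2 and GRCh38, without versions. The assembler and annotation are not given in the sources used here. Each deposited value is a signal, the read count of a feature over the size factor of its library. Dividing by the smallest step gave whole reads for 100% of values (tolerance 0.01). Of 59192 features, 25927 have an Ensembl identifier. Symbols came from a table of Ensembl identifiers, and positions and transcript lengths from GENCODE 29.

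Cuffdiff, which the methods name, was not run. limma 3.58.1 in R 4.3.3 was applied with an intensity trend to log2(normalized count + 1). Features with an adjusted p under 0.05 were called. edgeR 4.0.16 and DESeq2 1.42.0 on recovered reads, pseudocount, filters, scaling, trend, block and left-out libraries were alternatives. The members and lists were chosen with earlier results of these data known. Named genes are HPSE, the members, and from each list those called or else the 3 with the smallest p. Others include the 3 nearest to VIM, antisense genes, cell type markers, genes with E-box windows and those said to be chosen later. The 3 libraries per line are independent experiments by the methods. Counts of libraries of a line differed by more than counting noise (chi-square 21.7 to 26.6 per feature), which bears only on a library deposited more than once.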

Additional observations from a re-analysis of the deposited data

How the results depend on the processing

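The count of listed genes past the adjusted threshold was 0 in every alternative, and no listed gene changed direction. With 1 library left out, CRB3 ranged from −0.30 to 0.08 on the log2 scale and TYRO3 from −0.11 to 0.02, so both crossed 0. At an unadjusted p under 0.05 the count was 3, and 1 to 2 with 1 library left out. It was 1 without SW480-45 replicate 2 and without SW480-NC replicates 1 or 2. Over all features, 174 passed the adjusted threshold, 72 of them higher. These counts were 11 and 3 without an intensity trend and 825 and 393 in DESeq2. With 1 library left out they ranged from 29 to 93 and from 13 to 45. The cause was not tested.

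Same-numbered libraries showed no shared shift over the features tested, as the correlation of their deviations from the group means was 0.00246, −0.0202 and 0.00741. Such correlations cannot show whether same-numbered libraries were handled together. With the replicate number as a block, 12 features passed, 3 of them higher, and HMGA2 (adjusted p = 0.0842) and ITGAV (adjusted p = 0.188) lost the call in limma. Of 285 single-gene values under the alternatives, 262 were counted as keeping their side of the threshold, 17 lost the call and 6 gained it. The 262 include ZEB1, ZEB2 and AXL in DESeq2, which had no adjusted p and were counted as not called. A minimum mean of 50 removed ZEB1, ZEB2 and AXL. Depth limits ZEB1, ZEB2, SNAI2 and AXL, whose rows rest on few reads.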

Other observations

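CLDN4, a claudin of tight junctions named after its values were seen, varied most among the epithelial genes. It had 180.3, 2843 and 6110 normalized counts in SW480-45 and 84.7, 1469 and 316 in SW480-NC. The SD exceeded the mean in SW480-NC, at 741 against 623 (n = 3), and the log2 fold change of 2.10 had an adjusted p of 0.505 from limma.

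KRT20, a keratin of differentiated colon epithelium used here only to check the cell line, was picked out after its values were seen. It had 4452, 4555 and 4614 normalized counts in SW480-45 and 7349, 7919 and 8586 in SW480-NC. All knockdown libraries were below all control libraries, by −0.81 on the log2 scale, with an adjusted p of 0.00719 in limma. KRT20 was the 1 gene called of 6 colon epithelial markers tested, against 0.47% of all features called lower. Of the 6, 1 was higher and 5 lower, against 10700 and 11003 of all features tested. The higher one, VIL1, had 0.20 on the log2 scale with its groups apart (adjusted p = 0.225 from limma). LGALS4 had −0.06 (adjusted p = 0.792 from limma).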
